A study of Homo sapiens with 80 samples.

Results

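Ethanol-treated U2OS cells that expressed the glucocorticoid receptor (GR) variant E773R were compared with ethanol-treated U2OS cells that expressed GRalpha, to show how the cells differed before hormone was added. The comparison used 8 of the 80 arrays of the series, chosen by their labels, with 4 arrays of E773R cells and 4 of GRalpha cells at the 0 h time. Every 0 h culture received the vehicle ethanol for 4 h and no dexamethasone. The same alleles were also measured after dexamethasone, a synthetic glucocorticoid, at 100 nM for 2, 4 and 24 h, as were GRgamma, A477T and 30iiB in ethanol and in hormone. U2OS cells come from a human bone tumour and make little GR themselves, and all cultures were kept in 6-well plates in medium with 5% serum. GRalpha is the common receptor form, and E773R has an arginine in place of a glutamate in the ligand-dependent activation function (AF2). GRgamma, made by alternative splicing, has an additional residue in the DNA-binding domain, A477T is altered in the dimer interface of that domain, and 30iiB is altered in the N-terminal activation function. No source used here gives the promoter of the constructs or says whether a line was 1 clone or a pool.

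The glucocorticoid receptor is a transcription factor that waits in the cytoplasm, held by HSP90 and its cochaperones, until hormone binds. The hormone-bound receptor enters the nucleus, binds DNA or other DNA-bound factors, and recruits coactivators through AF2, whose surface forms when hormone closes the last helix of the ligand-binding domain. Serum can hold a little natural glucocorticoid, so cultures without added hormone need not be free of it.

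Expression was measured on single-colour bead arrays, and values are log2 background-corrected, quantile-normalised signals. Differences are E773R minus GRalpha on that log2 scale, each with the standard error (SE) of a limma model of all 80 arrays (n = 4 arrays a group). A gene was called at a two-sided adjusted p under 0.05 (limma, Benjamini-Hochberg over 12547 genes). The series states 4 biological replicates. The spread of each gene was estimated within all 20 groups of the 80 arrays together, and the p-values reflect only that shared spread. It can be smaller than the spread of the compared arrays. The median signal ran from 110 to 211 on the E773R arrays and from 216.5 to 397 on the GRalpha arrays, with 13236 to 16273 and 15619 to 17042 probes detected. Every E773R array was thus dimmer than every GRalpha array before normalisation, most of all replicate 3, and the part of brightness in the differences was not tested. Of 12 measured osteosarcoma and mesenchymal markers, 11 were detected on all 8 arrays and 0 were called. The arrays lay on slides of 8, and 2 slides held an array of both groups.

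In ethanol, 29 genes were higher in E773R cells (0.231% of the genes tested) and 45 were lower (0.359%), while 756 genes had an unadjusted p under 0.05. The median difference was 1.45 among the higher genes and -1.19 among the lower genes, against -0.0049 over all genes. Among the 74, 55 differed by at least 1 on the log2 scale. The groups did not overlap for 27 of the 29 higher genes (NPPB and TAPBPL were the exceptions), and 1.4% of all genes had every E773R array above every GRalpha array. They did not overlap for 43 of the 45 lower genes (all but EGFR and CRACDL), against 2% of all genes. On each of the shared slides all 74 genes differed in the direction of the fit. Those arrays are among the 8 that chose the genes, so this is no separate evidence. With slide as a fixed block 61 genes were called higher and 93 lower, and with only the 8 compared arrays in the fit 10 and 7, which kept 17 of the 74 calls. The higher genes kept there were H4C3, MAGEA10, LHX2, ART5, BGN, ACTG2, ALDH1L1, NXF2, CRYGS and NOS3. The lower ones were C1QTNF1, CTAG2, KCNIP1, ITGB2, LSS, CDH12 and F13A1. All other genes called in ethanol and named below lost their call in that fit. Without E773R replicate 3 the fit called 24 genes higher and 18 lower, without GRalpha replicate 2 26 and 29, and without GRalpha replicate 4 26 and 26. The authors' own log2 values gave 176 and 262, although only 61 of the 80 arrays matched their own column of that table best. Of the 74 genes, 16 were called in every alternative that tested them, and 74 kept their sign in all of them.

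**Figure D1:**
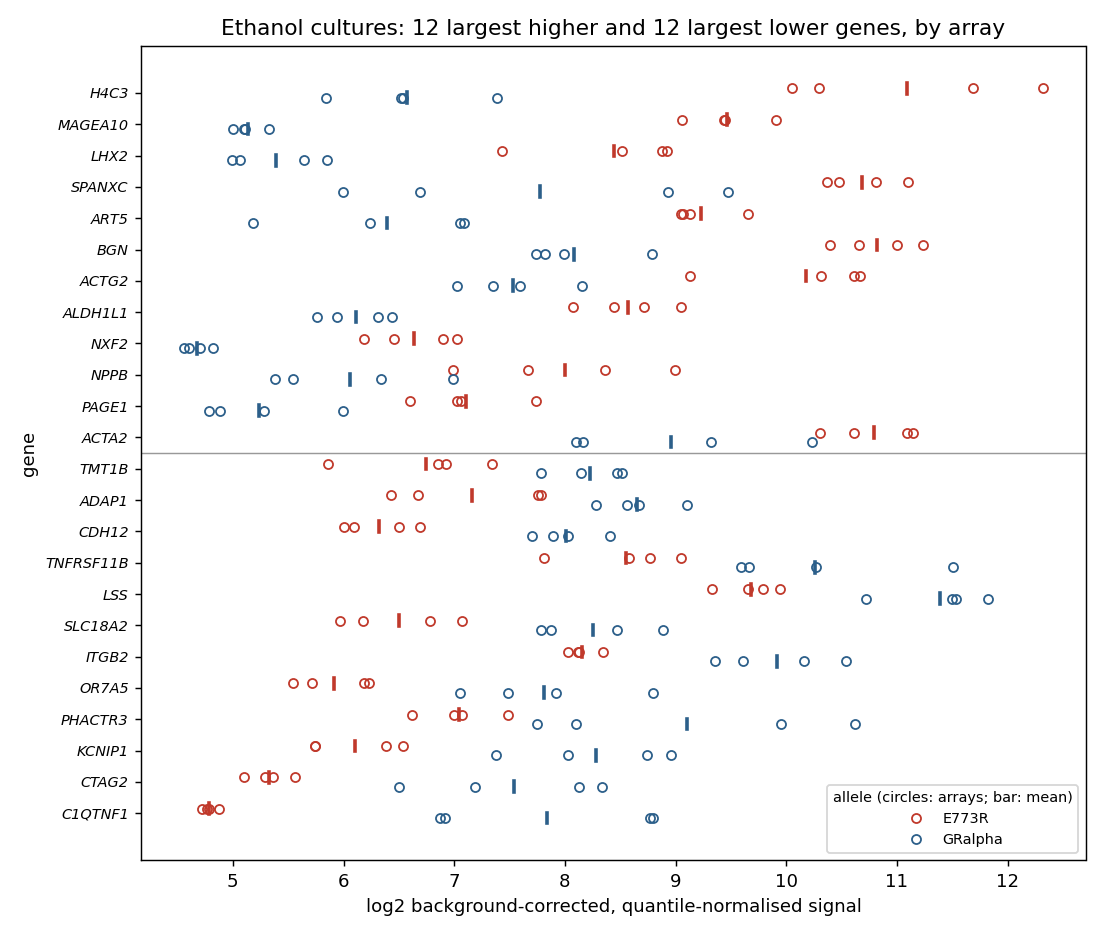
Log2 signal (horizontal axis) on each of the 4 E773R and 4 GRalpha ethanol arrays (circles) for the 12 largest higher and 12 largest lower genes (vertical axis), with bars at group means. The groups overlap for NPPB (6.99 to 9.0 against 5.38 to 6.99) and for no other gene shown.

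Genes that adult tissues other than the germ line seldom use stood at both ends of the comparison. MAGEA10, a cancer-testis antigen of the MAGE-A family on the X chromosome, was at 9.06, 9.45, 9.44 and 9.91 in E773R cells. In GRalpha cells it was at 5.11, 5.33, 5.00 and 5.10 and was detected on no array. It was therefore at least 14.1-fold higher in E773R cells (adjusted p = 2e-24), and its other probe, detected on no array, differed by 0.57. In bulk RNA more expressing cells and more RNA per cell cannot be told apart. For a gene undetected in a group the fold is a bound, taken against the lowest signal that counted as detected on each array of the dim group. NXF2, a testis gene of the mRNA export family, was at 7.02, 6.90, 6.18 and 6.46 against 4.70, 4.56, 4.61 and 4.82. It was detected on 3 E773R arrays and on no GRalpha array, and was at least 2.00-fold higher (adjusted p = 8.2e-10). PAGE1, another X-linked cancer-testis antigen, was at 6.60, 7.74, 7.06 and 7.03 against 6.00, 4.78, 5.28 and 4.89 (difference 1.87, SE 0.32, adjusted p = 0.00018).

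SPANXC, a gene of the sperm nucleus, was at 10.48, 11.10, 10.81 and 10.36 in E773R cells and at 9.48, 6.00, 8.93 and 6.69 in GRalpha cells. GRalpha replicates 1 and 3 were high and replicates 2 and 4 low, yet all lay below every E773R array (difference 2.91, SE 0.65, adjusted p = 0.0082). The call was lost without GRalpha replicate 2 or replicate 4 (2.32 and 2.55, adjusted p = 0.15 and 0.09). CTAG2, which encodes a tumour antigen of the NY-ESO-1 family, went the other way. It was at 5.29, 5.56, 5.10 and 5.37 in E773R cells, detected on no array, and at 8.33, 7.19, 8.13 and 6.50 in GRalpha cells. It was at least 3.17-fold lower in E773R cells (adjusted p = 0.0019), while its other probe, detected on 1 GRalpha array, differed by -0.27. MAGEA2 was lower as well (-1.24, SE 0.29, adjusted p = 0.015), with its other probe at -0.49, and 5 of its 18 alternatives ended the call, 4 of them by leaving out 1 array (E773R replicate 2 or 3, GRalpha replicate 2 or 3). Of 17 measured cancer-testis antigens 2 were higher, 2 lower and 13 not called, with a median of -0.18. NXF2, SPANXC, PAGE1, CTAG2 and MAGEA2 belong to families with near-identical copies, whose signals a probe may not separate.

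The smooth muscle genes ACTG2 and ACTA2 were higher in E773R cells. ACTG2, the gamma actin of enteric smooth muscle, was at 9.13, 10.61, 10.31 and 10.67 against 7.02, 7.35, 8.15 and 7.59. E773R replicate 1 was the lowest of its group and still above every GRalpha array (difference 2.65, SE 0.46, 6.27-fold, adjusted p = 0.00021). ACTA2, the alpha actin of vascular smooth muscle, was at 10.31, 11.09, 10.62 and 11.14 against 10.24, 9.32, 8.17 and 8.10. GRalpha replicates 1 and 2 were higher than replicates 3 and 4, and replicate 1 came within reach of the lowest E773R array (difference 1.84, SE 0.32, adjusted p = 0.0002). KCNMB1, a regulatory subunit of the large-conductance potassium channel of smooth muscle, was at 6.39, 7.99, 7.0 and 7.71 against 6.12, 6.08, 6.21 and 6.00 (1.17, SE 0.26, adjusted p = 0.0083), a call that ended without E773R replicate 2 or replicate 4. With arrays scaled to the same median, the ACTA2 call was lost (1.55, adjusted p = 0.11).

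Smooth muscle actin promoters are known for CArG boxes, the sites bound by serum response factor (SRF). The ACTG2 promoter is shown because ACTG2 was the only one of the 56 called genes with a promoter in the RefSeq table whose window held a CArG box. The window lies at chr2:73892758-73893057 on the + strand of GRCh38.p14. Its CArG boxes, in capitals, begin 110 and 73 bases before the transcription start.
ACTG2: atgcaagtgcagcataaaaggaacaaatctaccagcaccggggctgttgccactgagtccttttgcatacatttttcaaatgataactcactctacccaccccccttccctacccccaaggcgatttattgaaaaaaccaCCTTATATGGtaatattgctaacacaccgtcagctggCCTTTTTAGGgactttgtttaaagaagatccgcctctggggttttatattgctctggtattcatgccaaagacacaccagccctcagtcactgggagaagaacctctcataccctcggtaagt
A CArG box reads as one on both strands. It was present in 118 of 10188 promoters of tested genes (1.16%) and in 1 of the 56 (1.79%). The ACTA2 window of the same length, at chr10:88991288-88991587 on the - strand, did not hold these letters. Only 1 window was searched for each gene, so other starts of ACTA2 were not looked at.

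The list of TGF-beta and YAP target genes, which includes other contractile genes, had 1 of 20 members called higher (ACTA2) and 0 lower, with a median of 0.06. TAGLN, an actin-binding protein of smooth muscle, was at 1.06 without a call (adjusted p = 0.099), and CNN1 and MYL9 were at 0.38 and 0.61. The mean log2 level over the list ran from 11.49 to 11.67 on the E773R arrays and from 11.05 to 11.42 on the GRalpha arrays. The groups did not overlap, but the separation rested in part on ACTA2, called from the same values. In the GRgamma ethanol cultures the mean ran from 11.35 to 11.51, so it reached into the E773R range. Of 11 endothelial and muscle markers 0 were called, with a mean level of 7.35 to 7.95 against 7.15 to 7.71.

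Matrix genes differed in both directions. BGN, which encodes the bone and cartilage proteoglycan biglycan, was at 10.39, 10.66, 11.00 and 11.24 in E773R cells and at 7.82, 7.74, 7.99 and 8.79 in GRalpha cells. Every E773R array was above every GRalpha array (difference 2.74, SE 0.40, 6.67-fold, adjusted p = 4.9e-06). COL8A1, a short-chain collagen, was higher by 1.30 (SE 0.28, adjusted p = 0.0067), with its other probes at 1.26 and 0.89, and P3H2, a collagen prolyl hydroxylase, by 1.10. The COL8A1 call ended in 4 of 18 alternatives and the P3H2 call in 6, both of them without E773R replicate 3 and with median scaling, COL8A1 also without E773R replicate 4 and P3H2 without GRalpha replicate 2 or 3. COL6A1 and COL6A2, chains of the beaded-filament collagen VI and neighbours on chromosome 21, were lower, at -1.27 (SE 0.31, adjusted p = 0.024) and -1.28 (SE 0.33, adjusted p = 0.038). The COL6A1 call ended in 6 of 18 alternatives, 5 of them by leaving out 1 array (E773R replicate 3 or 4, GRalpha replicate 1, 3 or 4). The COL6A2 call ended in 9, among them the mean of all kept probes (-0.61, adjusted p = 0.48) and the same arrays or E773R replicate 2 left out. The other COL6A2 probes were at -0.92 and 0.36, so its probes disagreed. Of 20 measured collagen genes 1 was higher, 2 were lower and 17 were not called.

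Of 18 bone matrix and osteoblast genes 1 was higher (BGN) and 1 lower. TNFRSF11B, which encodes osteoprotegerin, the decoy receptor that restrains osteoclasts, was at 8.58, 7.81, 8.77 and 9.05 in E773R cells. In GRalpha cells it was at 9.59, 11.51, 9.66 and 10.27, highest in replicate 2 (difference -1.71, SE 0.36, adjusted p = 0.0044). Without GRalpha replicate 2 or E773R replicate 2 that call was lost (-1.29 and -1.46, adjusted p = 0.14 and 0.06). NOG, which encodes the BMP antagonist noggin, was lower (-1.39, SE 0.30, adjusted p = 0.007), as was WNT5B, a noncanonical WNT ligand (-1.37, SE 0.24, adjusted p = 0.00025). The NOG call ended without E773R replicate 3 or GRalpha replicate 2.

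LHX2, a LIM homeobox factor of forebrain and limb, was at 7.43, 8.92, 8.52 and 8.88 against 4.99, 5.06, 5.65 and 5.85. It was higher in E773R cells, detected on all 4 arrays there and on 1 GRalpha array (difference 3.05, SE 0.30, adjusted p = 4.6e-11). HOXD10 (1.12, SE 0.25, adjusted p = 0.0097) was the only called gene among 19 HOX genes. NKX2-2, a homeobox factor of neural tube and pancreas, was at 0.96 (SE 0.21, adjusted p = 0.0061). The HOXD10 and NKX2-2 calls each ended in 4 of 18 alternatives, among them median scaling and leaving out 1 array (E773R replicate 3 or GRalpha replicate 1 for HOXD10, E773R replicate 4 or GRalpha replicate 3 for NKX2-2). HLF, a bZIP factor related to the clock output factor DBP, was detected on no GRalpha array and was at least 1.38-fold higher (adjusted p = 0.0043). NFIB, a nuclear factor I of lung and brain development, was lower (-1.02, SE 0.24, adjusted p = 0.015). Its call ended in 6 of 18 alternatives, 5 of them by leaving out 1 array (E773R replicate 1 or 3, GRalpha replicate 2, 3 or 4).

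H4C3, one of the near-identical replication-dependent histone H4 genes, had the largest fitted difference. It was at 10.30, 11.69, 10.05 and 12.32 in E773R cells and at 7.39, 5.84, 6.53 and 6.52 in GRalpha cells (4.52, SE 0.71, 22.9-fold, adjusted p = 2.4e-05). Of 12 histone genes it was the only one called, and of 27 genes of S phase and 25 of mitosis 0 were called, with medians of -0.04 and -0.03.

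ALDH1L1, an enzyme of folate metabolism used as an astrocyte marker, was at 8.71, 9.05, 8.08 and 8.45 against 6.44, 5.94, 5.76 and 6.31 (difference 2.46, SE 0.25, adjusted p = 1.3e-10). ART5, an ADP-ribosyltransferase, was at 9.07, 9.66, 9.05 and 9.13 against 7.09, 5.18, 6.24 and 7.05 (2.83, SE 0.43, adjusted p = 7.6e-06), with its other probe at 1.65. The arrays of the groups did not overlap for either gene. CRYGS, a gamma crystallin of the eye lens, was higher by 1.47 (SE 0.21, adjusted p = 4.2e-06). NOS3, the endothelial nitric oxide synthase, was detected on 3 E773R arrays and on no GRalpha array (at least 1.54-fold, adjusted p = 0.00068). NPPB, which encodes the natriuretic peptide of the heart ventricle, was higher by 1.94 (SE 0.37, adjusted p = 0.001), although E773R replicate 1 and GRalpha replicate 3 were both at 6.99.

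C1QTNF1, a secreted relative of adiponectin, was lower in E773R cells. It was at 4.78, 4.88, 4.72 and 4.77 in E773R cells, detected on no array, and at 8.77, 8.80, 6.92 and 6.87 in GRalpha cells. GRalpha replicates 1 and 2 were well above replicates 3 and 4, and all 4 were above the E773R arrays (at least 3.90-fold lower, adjusted p = 8.5e-10). Its other probes were at 0.05 and -0.20 and were detected on at most 1 array of a group. PHACTR3, a regulator of protein phosphatase 1 and actin, showed the same split, at 9.95, 10.62, 8.10 and 7.74 in GRalpha cells against 6.62, 7.48, 7.0 and 7.07 (difference -2.06, SE 0.37, adjusted p = 0.00033). Its other probe differed by -2.26. The PHACTR3 call was lost with only the 8 compared arrays in the fit (adjusted p = 0.45, limma).

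KCNIP1, a calcium-binding partner of A-type potassium channels, was at 5.74, 6.53, 5.75 and 6.38 against 8.75, 8.96, 7.38 and 8.02 (-2.17, SE 0.37, adjusted p = 0.00017), and its other probe was at -2.09. SLC18A2, the vesicular monoamine transporter, was lower (-1.75, SE 0.37, adjusted p = 0.0044; lost without E773R replicate 3 or GRalpha replicate 4), and so was OR7A5, an olfactory receptor (-1.89, SE 0.33, adjusted p = 0.0002). CDH12, a cadherin of brain, was at 6.09, 6.69, 6.51 and 6.0 against 8.03, 7.89, 7.70 and 8.41 (-1.68, SE 0.35, adjusted p = 0.0039). ADAP1, an adaptor of small GTPases, and TMT1B, a thiol methyltransferase, were lower too (-1.49 and -1.48, SE 0.36 and adjusted p = 0.021 for both). Their calls ended in 6 and 7 of 18 alternatives, 5 of them for each gene by leaving out 1 array (E773R replicate 1 or 3, GRalpha replicate 1 or 4, and GRalpha replicate 2 for ADAP1 or 3 for TMT1B). F13A1, a transglutaminase subunit of clotting, was at -1.41 (SE 0.35, adjusted p = 0.03), and its call ended in 9 of 18 alternatives, among them each array but GRalpha replicate 3 left out.

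ITGB2, the beta chain of leukocyte integrins, was at 8.34, 8.03, 8.13 and 8.12 in E773R cells and at 10.54, 10.16, 9.61 and 9.35 in GRalpha cells. The E773R arrays lay close together and below every GRalpha array (difference -1.76, SE 0.28, adjusted p = 2.3e-05). It was the only 1 of 10 blood markers called, and the mean level of that list was 6.07 to 6.26 in E773R cells and 5.98 to 6.35 in GRalpha cells. EGFR, the epidermal growth factor receptor, was lower (-1.13, SE 0.28, adjusted p = 0.029). EGFR was at 7.06, 6.43, 6.28 and 5.80 against 7.53, 7.60, 6.93 and 8.04, so the groups overlapped, and 9 of its 18 alternatives ended the call, among them each array but E773R replicate 1 and GRalpha replicate 3 left out. Its other probe differed by -0.69.

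Genes of sterol synthesis had differences mostly below 0, and 2 of them passed the test. LSS, the cyclase that makes lanosterol, was at 9.66, 9.95, 9.33 and 9.79 in E773R cells and at 11.82, 11.53, 11.50 and 10.72 in GRalpha cells (-1.71, SE 0.25, adjusted p = 4.3e-06). Its other probes were at -1.07 and -0.80. HMGCS1, the synthase that starts the mevalonate pathway, was at 12.82, 12.72, 12.70 and 12.61 against 13.67, 14.08, 12.93 and 13.35 (-0.79, SE 0.21, adjusted p = 0.0495), and 10 of its 18 alternatives ended the call, among them each array but GRalpha replicate 3 left out. Of 17 measured genes of sterol and fatty acid synthesis 2 were lower, 0 higher and 15 not called, with a median of -0.64. INSIG1, which holds the sterol sensor in the endoplasmic reticulum, was at -1.74 (SE 0.53, adjusted p = 0.16), the epoxidase SQLE at -0.90 and the kinase MVK at -0.87. The transcription factor genes SREBF1 and SREBF2 were at -0.41 and 0.26, and FASN, the fatty acid synthase, at 0.10. The mean level of the list ran from 10.40 to 10.55 on the E773R arrays and from 10.86 to 11.39 on the GRalpha arrays. In the other ethanol cultures it ran from 10.12 to 10.57 in A477T, from 10.32 to 10.99 in 30iiB and from 10.55 to 11.07 in GRgamma, so the E773R arrays lay within the range of A477T. Against the mean of these 3 variants the list median was -0.01 in E773R cells and 0.40 in GRalpha cells. LSS, in the low chromosome 21 stretch described below, was called in E773R cells (-1.15) and SQLE in GRalpha cells (1.03).

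Neither the receptor gene nor any gene listed as glucocorticoid-induced passed the test in ethanol. NR3C1, the GR gene, was at 7.60, 7.33, 7.31 and 7.07 in E773R cells and at 8.10, 7.32, 7.21 and 8.02 in GRalpha cells. The groups overlapped (-0.33, SE 0.34, adjusted p = 0.995), and its other probe was at -0.71. Whether these probes match the expressed constructs was not tested. Of 13 receptor and chaperone genes and of 14 AF2 coregulators 0 were called (medians -0.05 and 0.07). NCOA2, a coactivator bound by AF2, had the largest difference of the latter (-0.60).

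Of 22 glucocorticoid-induced genes 0 were called, with a median of -0.16. TSC22D3, the leucine zipper protein GILZ, was at 9.85, 8.90, 8.81 and 8.93 in E773R cells and at 10.04, 9.51, 8.66 and 8.74 in GRalpha cells. The groups overlapped, with replicate 1 the highest in both (-0.12, SE 0.35). PDK4, a kinase that restrains pyruvate oxidation, was at 0.16 (SE 0.36), KLF9 at -0.33 (SE 0.30), DUSP1 at -0.22 (SE 0.26) and the kinase SGK1 at -0.61 (SE 0.32). Among the alternatives only the authors' own log2 values called SGK1, as lower (-0.76, adjusted p = 0.038, limma). ZBTB16, a zinc finger repressor, was at -0.0017 (SE 0.39), a sign that 6 of the 17 alternatives that tested it turned. PER1, a repressor of the circadian clock, was at 5.55, 5.39, 5.03 and 5.46 against 6.50, 6.61, 6.21 and 6.08. Its groups did not overlap, and it was detected on no E773R array and on all 4 GRalpha arrays. It was not called (at least 1.39-fold lower, adjusted p = 0.23).

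Hormone targets were also defined on arrays outside the comparison, as the genes called in the same direction at 4 h against 0 h in both GRgamma and 30iiB cells. There were 173 higher (1.38% of the genes tested) and 103 lower (0.821%). In ethanol, 0.231% of all genes were called higher in E773R cells and 0.359% lower. Of the 173, 0 were called higher and 2 lower (C1QTNF1 and PHACTR3), with a median of -0.0017. Of the 103, 1 was higher (SH3RF2) and 2 were lower (TNFRSF11B and NOG), with a median of -0.10. E773R cells were above GRalpha cells for 49.7% of the first, 39.8% of the second and 49.2% of all genes. CXCL8, the neutrophil chemokine interleukin 8, had the largest difference above 0 among these targets, without a call. It was at 14.86, 13.65, 12.83 and 12.42 in E773R cells and at 13.37, 14.98, 10.13 and 10.65 in GRalpha cells, where replicates 1 and 2 were again far above replicates 3 and 4 (1.16, SE 0.94, adjusted p = 0.98).

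Other lists held few called genes. Of 16 immediate early genes 0 were called (median -0.35), as were 0 of 10 NF-kB and MAPK feedback inhibitors (median -0.35) and 0 of 20 interferon response genes (median 0.28). The mean level of each of these lists overlapped between the groups. PFKL, the liver form of phosphofructokinase, was lower (-0.96, SE 0.23, adjusted p = 0.021) and was the only called gene of 22 of glycolysis. Its other probe was at -0.05. The call ended in 7 of 18 alternatives, among them the mean of all kept probes (-0.51, adjusted p = 0.58), a slide block (-0.78, adjusted p = 0.054) and leaving out E773R replicate 3 or 4 or GRalpha replicate 1 or 2.

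The 74 genes were followed into the hormone-treated cultures, whose levels did not enter the ethanol differences. All times share 1 estimate of the spread of each gene, so the calls at different times are not independent. After 2 h of dexamethasone 24 of the 29 higher genes and 33 of the 45 lower genes were called in the same direction. Of all genes 0.51% were called higher and 1.03% lower in that comparison. After 4 h the counts were 19 and 29, against 0.988% and 2.57% of all genes, and after 24 h 22 and 22, against 1.9% and 3.09%. In all, 31 genes were called in the same direction at all 3 times, 18 higher and 13 lower, and 8 were called at none. The sign was the same at every time for 63 of the 74.

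**Figure D2:**
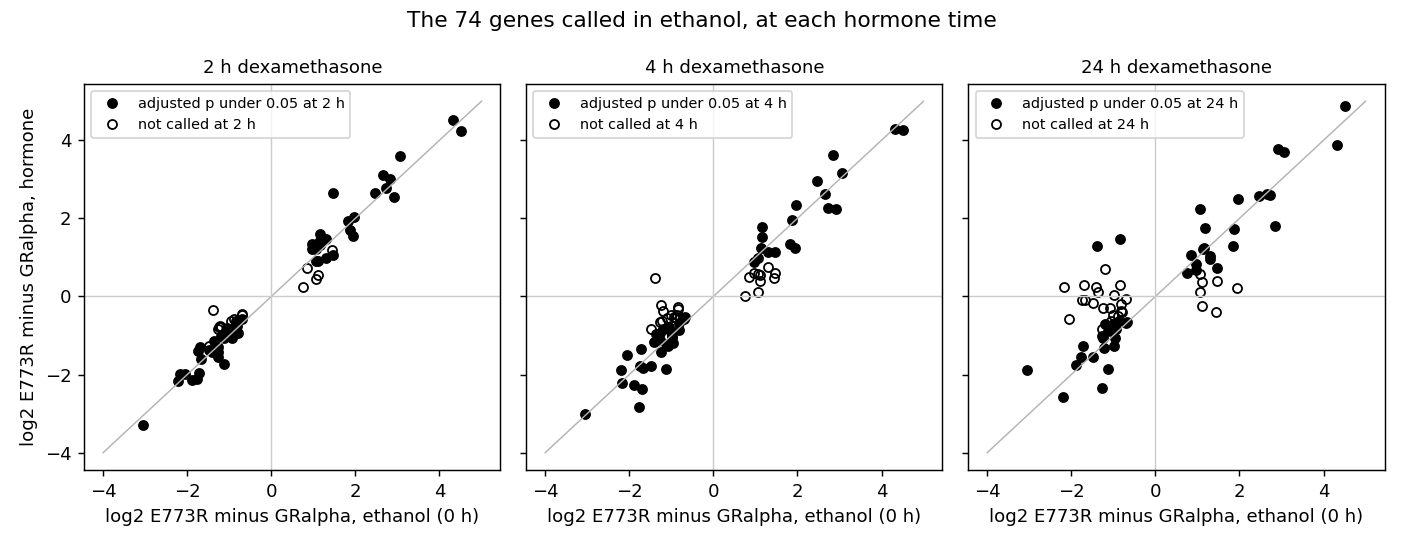
Difference between E773R and GRalpha cells in ethanol (horizontal axis, log2) against the difference after 2, 4 and 24 h of dexamethasone (vertical axis, log2) for the 74 genes called in ethanol. Filled circles passed the test at that time, the grey diagonal marks equal differences, and most genes lie near it at 2 and 4 h, with more lower genes near 0 at 24 h.

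MAGEA10 differed by 4.52, 4.29 and 3.89 at 2, 4 and 24 h, H4C3 by 4.24, 4.27 and 4.87, and BGN by 2.77, 2.27 and 2.59. All were called at every time. ACTG2 differed by 3.12, 2.62 and 2.62, ACTA2 by 1.94, 1.35 and 1.29, and C1QTNF1 by -3.30, -3.00 and -1.88. ITGB2 was at -2.12, -2.83 and -1.54, and LSS at -1.97, -1.34 and -1.28, each called at all times. Some of the lower genes were near 0 at 24 h. KCNIP1 was at -1.99 and -2.22 at 2 and 4 h and at 0.24 at 24 h, CDH12 at -1.61, -1.83 and -0.10, and TNFRSF11B at -1.30, -2.38 and 0.29.

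NOG and TACC2 were called lower in ethanol and higher at 24 h. NOG was at -0.35, 0.47 and 1.30 at 2, 4 and 24 h, and TACC2, a centrosomal coiled-coil protein, at -0.63, -0.33 and 1.48. The ethanol call of TACC2 ended in 6 of 18 alternatives, among them E773R replicate 3, GRalpha replicate 2 or GRalpha replicate 4 left out. The change in the difference between 0 and 4 h was called for 1 of the 74 genes, NOG (1.86, adjusted p = 0.014), while 0.0717% of all genes were called higher and 0.414% lower in that test. At 2, 4 and 24 h 3, 5 and 8 of the 20 TGF-beta and YAP targets were called higher in E773R cells and 0 lower. TAGLN was at 1.72, 1.17 and 1.71, called at each time. Of the 17 sterol and fatty acid genes 5, 3 and 1 were called lower, among them INSIG1 at 2 and 4 h (-2.03 and -2.02), and 1 was called higher at 24 h (SREBF1, 0.82).

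Both compared lines were also set against the 3 other variants in ethanol. Relative to the mean of GRgamma, A477T and 30iiB cells, 0.43% of all genes were called higher and 0.717% lower in E773R cells. In GRalpha cells the shares were 0.454% and 0.422%. These comparisons share their E773R or GRalpha arrays with the main one, so values are given side by side. The 74 genes were chosen on those same arrays, so the counts that follow are descriptions and no separate evidence. Of the 74 genes, 39 were called in E773R cells against the other variants, in the direction of the main comparison, without a call of the opposite sign in GRalpha cells. In 13 it was GRalpha cells that were called apart, in 1 both, and in 21 neither.

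**Figure D3:**
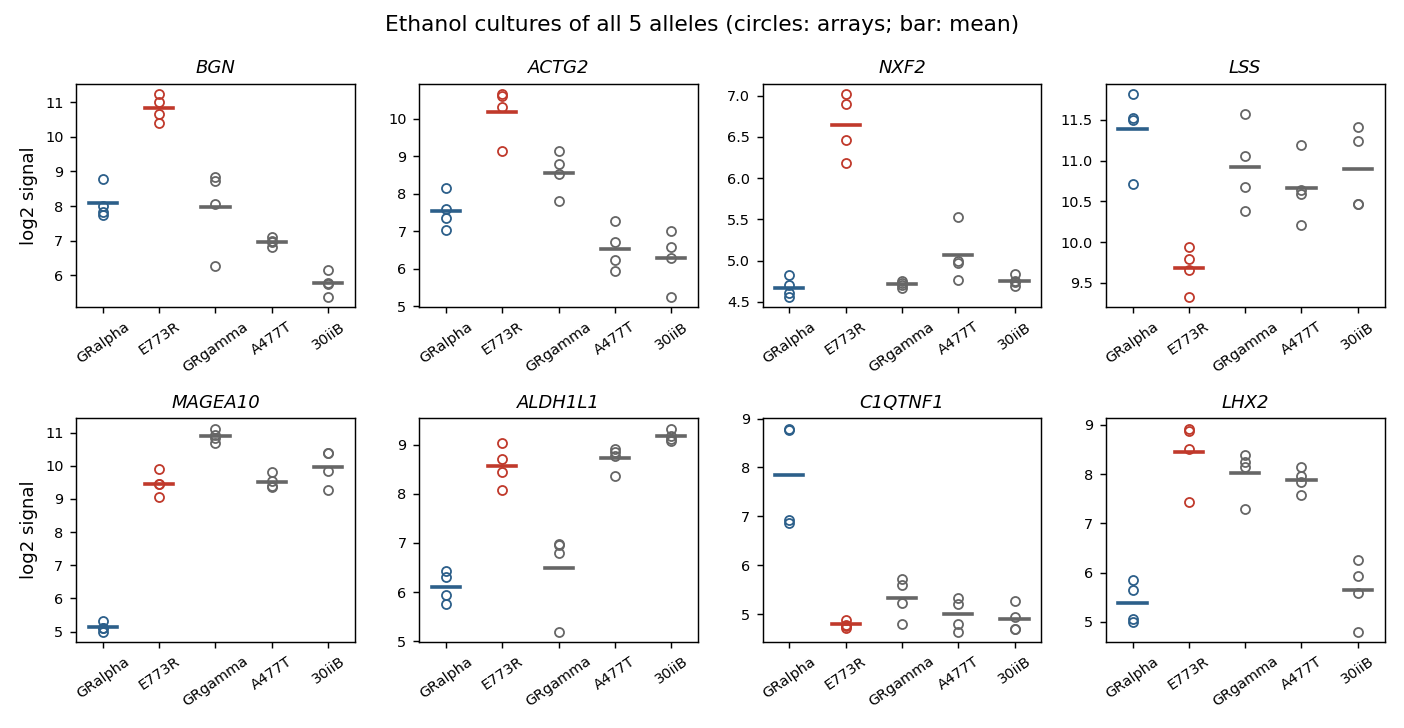
Log2 signal of 8 genes (vertical axes) on every ethanol array of the 5 alleles (circles, 4 arrays an allele; bars are means). BGN, ACTG2, NXF2 and LSS set E773R cells apart from the mean of the other variants, MAGEA10, ALDH1L1 and C1QTNF1 set GRalpha cells apart, and LHX2 both.

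BGN was 3.92 above the other variants in E773R cells and 1.18 above them in GRalpha cells, and ACTG2 3.06 and 0.41. NXF2 was at 1.80 and -0.17, ART5 at 2.61 and -0.23, and LSS at -1.15 and 0.56. For MAGEA10 the values were -0.67 and -5.00, so that E773R cells lay much nearer the other variants than GRalpha cells did. H4C3 was at 0.69 and -3.83, ALDH1L1 at 0.44 and -2.02, and C1QTNF1 at -0.29 and 2.76. LHX2, the gene with both calls, was at 1.26 and -1.79. The variants differed among themselves too: LHX2 had means of 8.02 in GRgamma, 7.88 in A477T and 5.64 in 30iiB cells, and ALDH1L1 of 6.48, 8.72 and 9.17. A call against their mean can therefore hide a variant at the level of E773R cells. KCNIP1 had such a call in E773R cells, with means of 6.10 there and 6.07 in GRgamma cells. MAGEA10 was also called in E773R cells against the other variants, in the opposite direction (adjusted p = 0.049).

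The lower genes were unevenly placed along the genome. Chromosome 21 held 10 of them among 145 measured genes and chromosome 7 held 12 among 547. Genes were ordered by their positions in GRCh38.p14, and a running median of the differences was taken over 25 neighbouring genes. Windows with a median past -0.3, or as far above 0, were joined within a direction where the gap was at most 25 windows, and a stretch needed at least 25 such windows. Stretches of this kind, all of them below 0, lay on chromosomes 7, 14 and 21, where 100, 79 and 36 windows passed, and covered 361 genes, 2.88% of those placed. These stretches held 22 of the 45 lower genes and 0 of the higher ones. The stretches were chosen on the same ethanol differences, after these had been seen, which favours lower genes inside them. These counts and the ethanol values that follow are therefore descriptions.

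**Figure D4:**
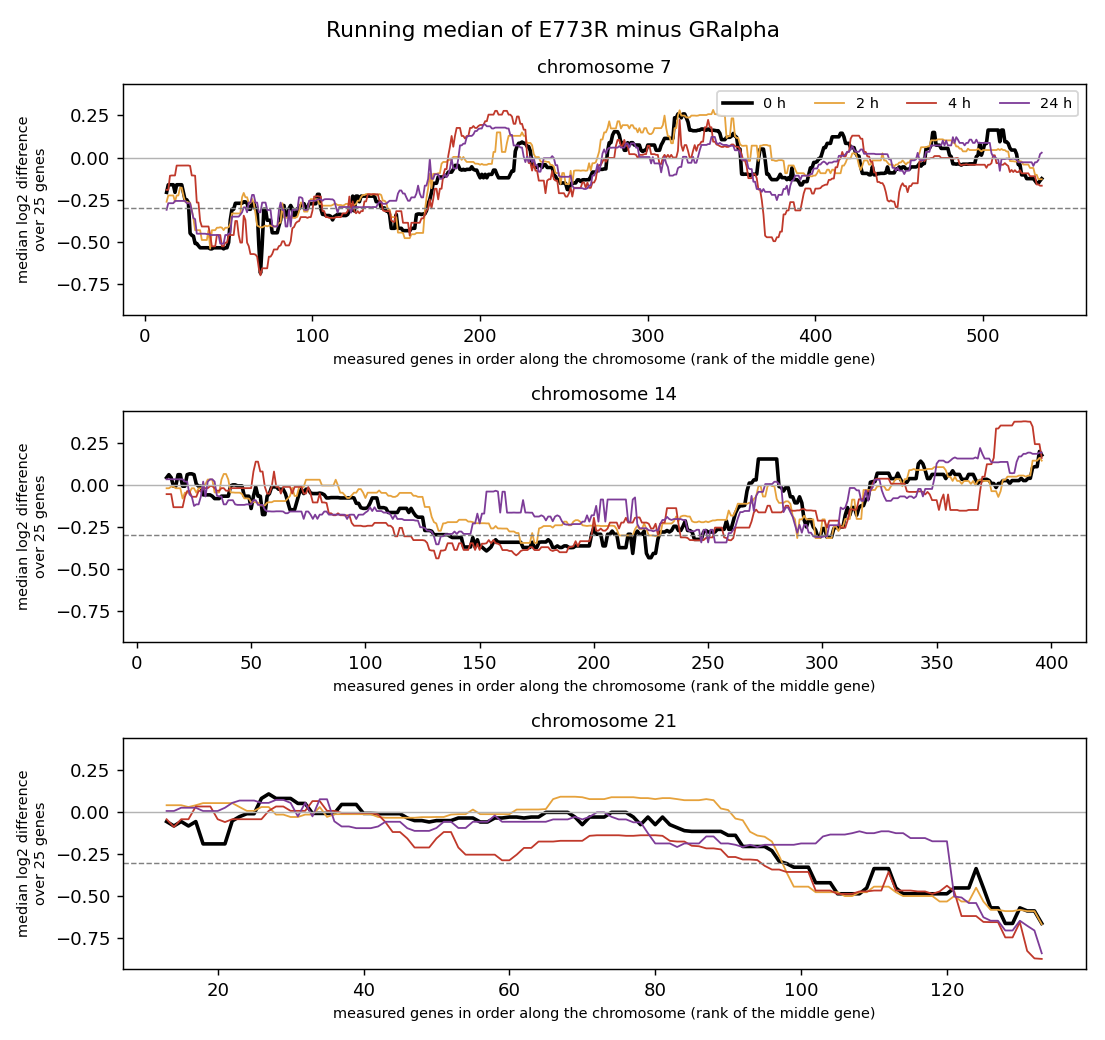
Running median over 25 neighbouring genes of the log2 difference between E773R and GRalpha cells (vertical axis) by gene order on chromosomes 7, 14 and 21 (horizontal axis), in ethanol (black) and after 2, 4 and 24 h of dexamethasone. The dashed line marks -0.3. At every time the curves lie below 0 over most of the first part of chromosome 7 and at the end of chromosome 21, and at 24 h the chromosome 21 curve falls past the line only in the last genes.

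The stretch on chromosome 21 ran from IGSF5 to PRMT2 and held 60 measured genes, of which 43 lay below 0 and 10 were called lower. Its median difference was -0.44 in ethanol and -0.46, -0.52 and -0.31 at 2, 4 and 24 h. The called genes were LSS, ITGB2, COL6A1, COL6A2, PFKL and 5 more. PRMT2, an arginine methyltransferase, was lower (-1.26, SE 0.18, adjusted p = 3.3e-06), with other probes at -1.30 and -1.69. SUMO3, a ubiquitin-like modifier, was at -1.0, PTTG1IP at -1.12, GATD3 at -0.98 and WDR4, part of a tRNA methyltransferase, at -1.26. The other WDR4 probe was at -0.24. The WDR4 call ended without E773R replicate 3 and the GATD3 call without E773R replicate 1 or 3 or GRalpha replicate 1.

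The stretch on chromosome 7 ran from MICALL2 to ASL and held 166 genes, of which 134 lay below 0 and 11 were called lower. Its median was -0.32 in ethanol and -0.29, -0.36 and -0.29 at 2, 4 and 24 h. INTS15, a subunit of the Integrator complex, was at 10.85, 11.03, 10.19 and 10.86 in E773R cells and at 11.81, 11.78, 11.84 and 12.27 in GRalpha cells (-1.19, SE 0.15, adjusted p = 1.5e-07). The others included EGFR, RAC1, a GTPase of lamellipodia (-0.89), FSCN1, an actin-bundling protein (-0.82), and GSDME, a pore-forming gasdermin (-0.81). The RAC1 and GSDME calls each ended in 7 of 18 alternatives, 5 of them by leaving out 1 array (E773R replicate 2, 3 or 4, GRalpha replicate 2 or 4). The stretch on chromosome 14 ran from PRPF39 to COQ6 with 135 genes, 119 of them below 0, and 1 called, DACT1, an antagonist of WNT signalling (-1.10), whose call ended without E773R replicate 3 or 4 or GRalpha replicate 4. Its median was -0.33 in ethanol and -0.24, -0.33 and -0.23 at 2, 4 and 24 h.

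The level of each stretch was set against that of all other genes on each of the 80 arrays. On chromosome 21 the 16 E773R arrays ran from -0.55 to -0.24, and the arrays of the other 4 alleles from -0.19 to 0.52. No array of another allele overlapped with an E773R array. On chromosome 7 the E773R arrays ran from -0.36 to -0.08 and the GRalpha arrays from 0.01 to 0.29. The GRgamma arrays, from -0.29 to -0.00094, overlapped with those of E773R, and the median of GRgamma against GRalpha was -0.30 in ethanol over that stretch. On chromosome 14 the E773R and GRalpha arrays, from -0.44 to 0.09 and from -0.06 to 0.49, overlapped. Over that stretch in ethanol the median against the mean of the other variants was -0.16 in E773R cells and 0.17 in GRalpha cells. Against GRalpha it was -0.23 in A477T, -0.21 in 30iiB and -0.01 in GRgamma cells. Gene copy number was not measured here, and the cause of the differences over these stretches was not tested.

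**Figure D5:**
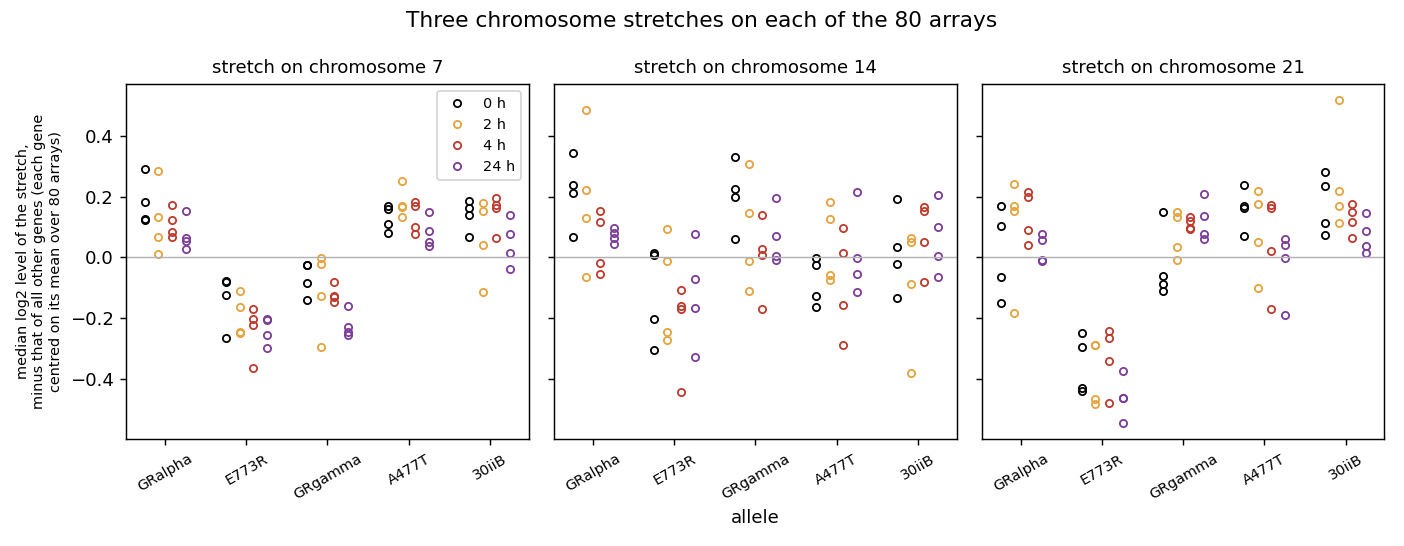
Median log2 level of the genes of each stretch minus that of all other genes, each gene centred on its mean over 80 arrays (vertical axis), for the 16 arrays of each allele (horizontal axis), with colours for time. On chromosome 21 all E773R arrays lie between -0.55 and -0.24 and all other arrays at -0.19 or above, on chromosome 7 E773R and GRgamma are low, and on chromosome 14 the alleles overlap.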

How the data were processed

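Total RNA of 80 cultures was labelled with biotin and hybridised to Illumina bead arrays. The authors deposited non-normalized probe intensity values with a detection p-value for each of 25204 probes, per the file headers. The deposited series matrix holds the authors' log2 values, whose normalisation is not stated, and served as an alternative. Intensities were background-corrected with limma 3.58.1 (normal-exponential model from detection p-values, offset 16), quantile-normalised over 80 arrays and taken to log2. Probes with a detection p under 0.05 on at least 4 arrays were kept (15392), the probe with the highest mean stood for a gene (12547 genes), and 5913 probes without a single gene name in the platform annotation were left out. A limma model of 20 group means (R 4.3.3) with empirical Bayes variances (60 residual and 5.87 prior degrees of freedom) gave differences, standard errors and Benjamini-Hochberg adjusted p, and was tested on simulated data. Contrasts compared E773R with GRalpha at each time, each with the mean of the 3 other variants in ethanol, and the difference at 4 h with that at 0 h.

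Named genes were the 12 largest called, non-overlapping differences in each direction, up to 4 called members of each of 32 gene lists, 8 receptor genes and targets, and up to 3 hormone targets in each direction. Other called genes were named after their values were seen, as were the chromosome stretches. The members and lists were chosen with earlier results of these data known. Promoters and gene order are RefSeq's (GRCh38.p14). The number of arrays limits the precision. Replicate numbers did not pair arrays: the correlation of same-numbered deviations from the group means ran from -0.45 to 0.12.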

Additional observations from a re-analysis of the deposited data

Results flagged for a closer look

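In 4 of the 88 groups of 4 arrays looked at, 1 array lay far from the other 3, and chance gives this in about 1 in 20 groups. ART5 was at 9.66 in E773R replicate 2 and at 9.05 to 9.13 in the others. TSC22D3, a hormone-induced gene, was at 9.85 in E773R replicate 1 and at 8.81 to 8.93 in the others. ZBTB16 was at 6.18 in E773R replicate 3 and at 4.56 to 4.83 in the others, although it was detected on no E773R array. SH3RF2, an adaptor protein, was at 11.0 in E773R replicate 1 and at 10.2 to 10.3 in the others. The difference between E773R and GRalpha cells changed between 0 and 4 h for NOG by 1.86 on the log2 scale (adjusted p = 0.014, limma interaction contrast).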

How the results depend on the processing

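All 74 called genes kept their sign in the 18 alternatives that tested them, and 16 kept their call in each. Only the 8 compared arrays in the fit gave 10 genes higher and 7 lower. Slide as a fixed block gave 61 and 93, of which 75 were called the same way at 4 h, 70 at 24 h and 70 against the other variants (main values of the same counts 48, 44 and 40 of 74). The authors' matrix gave 176 and 262, with 211, 219 and 171 at 2, 4 and 24 h and 188 against the other variants, but only 61 of the 80 arrays matched their own matrix column best (lowest correlation 0.938). Arrays scaled to the same median moved the median of all genes to -0.099 and kept 46 of the 74 calls. The lost calls included SH3RF2 and, in the chromosome stretches, SUMO3, PTTG1IP, GATD3, RAC1, FSCN1 and GSDME. The counts with that scaling were 32 at 2 h, 27 at 24 h and 22 against the other variants. Leaving out 1 array gave 23 to 32 higher and 18 to 50 lower genes, with 18 without E773R replicate 3, 29 without GRalpha replicate 2 and 26 without GRalpha replicate 4. The counts ran from 39 to 53 at 2 h, 37 to 50 at 4 h, 30 to 42 at 24 h and 26 to 44 against the other variants. They were lowest without E773R replicate 3, except at 4 h, where 37 was the count without GRalpha replicate 4 and 38 that without E773R replicate 3. ZBTB16 turned to 0.32 with the slide block and 0.29 with median scaling, and ran from -0.37 to 0.17 with 1 array left out. TSC22D3 ran from -0.36 to 0.15 and DUSP1 from -0.49 to 0.15. The replicate block gave 31 genes higher and 55 lower and kept all 74 calls, although the shared numbers did not pair the arrays, and 0 of 8 arrays deviated most like the array of its own number. The stretch medians, an alternative chosen after seeing the data, stayed below 0. On chromosome 21 the median was -0.57 over genes detected on 4 of the 8 arrays, -0.29 with no background correction, -0.27 in the matrix and -0.30 without GRalpha replicate 2. On chromosome 7 it was -0.48 with median scaling and -0.22 with no background correction, and on chromosome 14 -0.52 with median scaling. The causes were not tested. Genes at background on the arrays of a group have only a bound there.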
